A study of Mus musculus with 5 samples.

Results

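The miR-99/miR-100 and miR-125 families were followed through the differentiation of C2C12 cells, a mouse myoblast line that leaves the cell cycle and fuses into myotubes when serum is lowered. The members were the 5 mouse probes named mmu-miR-99a, mmu-miR-99b, mmu-miR-100, mmu-miR-125a and mmu-miR-125b, written below without the species prefix and taken by name from the 343 mouse microRNA (miRNA) probes on the arrays. The families were chosen by name, and miR-125b was already known to be called at day 4 in these data. The RNA, prepared with TRIzol, came from proliferating cells at 70 to 80% confluence, from cells at 100% confluence, and from cells kept 1, 2 or 4 days in 2% horse serum. Each of the 5 stages had 4 biological replicates per the labels, on 1 array each, which made 20 two-colour arrays. Every array, including those of proliferating cells, set its sample beside a pool of 4 proliferating replicates. All samples came from the same cell line, and the labels name no transgene.

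A miRNA pairs with messenger RNAs mainly through its seed, bases 2 to 8 from the 5′ end, and lowers their translation or stability. miR-99a, miR-99b and miR-100 share 1 seed and are known to repress Mtor, and miR-125a and miR-125b, relatives of the worm miRNA lin-4, share another. In myoblasts miR-125b is known to repress Igf2, a growth factor that promotes muscle differentiation. The members are printed because their seeds define the 2 families and the bases outside the seed are what separates relatives of a family. The mature 5p sequences are from RefSeq (GRCm38.p6) for all 5 members, with the seed in capitals.
mmu-miR-99a-5p: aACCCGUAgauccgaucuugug
mmu-miR-99b-5p: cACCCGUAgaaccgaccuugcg
mmu-miR-100-5p: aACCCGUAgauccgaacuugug
mmu-miR-125a-5p: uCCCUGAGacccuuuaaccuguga
mmu-miR-125b-5p: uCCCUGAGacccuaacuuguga

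Counted from 1 at the 5′ end, miR-100 (first) and miR-99a differ by the single substitution A16U. miR-100 and miR-99b differ by 4 substitutions, A1C, U11A, A16C and U21C, all outside the seed. miR-125a is 24 bases long and miR-125b 22, they share their first 13 bases, and an edit distance of 3 separates them. The probe sequences were not used here, and whether a probe also took up the RNA of its relative was not tested.

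The members come from 3 clusters in which a miR-99 or miR-100 gene is followed by a let-7 gene and a miR-125 gene, all on the plus strand. On chromosome 17, Mir99b (17830188 to 17830257), Mirlet7e and Mir125a (17830812 to 17830879) lie within 692 bases, inside the span of the protein-coding gene Spaca6 (GRCm38.p6). On chromosome 9, Mir100 (41531425 to 41531504), Mirlet7a-2 and Mir125b-1 (41581926 to 41582002) spread over 50.6 kb inside the span of the long noncoding RNA gene Mir100hg. On chromosome 16, Mir99a (77598936 to 77599000), Mirlet7c-1 and Mir125b-2 (77646273 to 77646343) spread over 47.4 kb, and no gene in the annotation table covered the whole span. The table gives gene spans only, so exons and introns were not assigned. miR-125b has the same mature sequence from both genes, and its probe reads their sum.

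**Figure D1:**
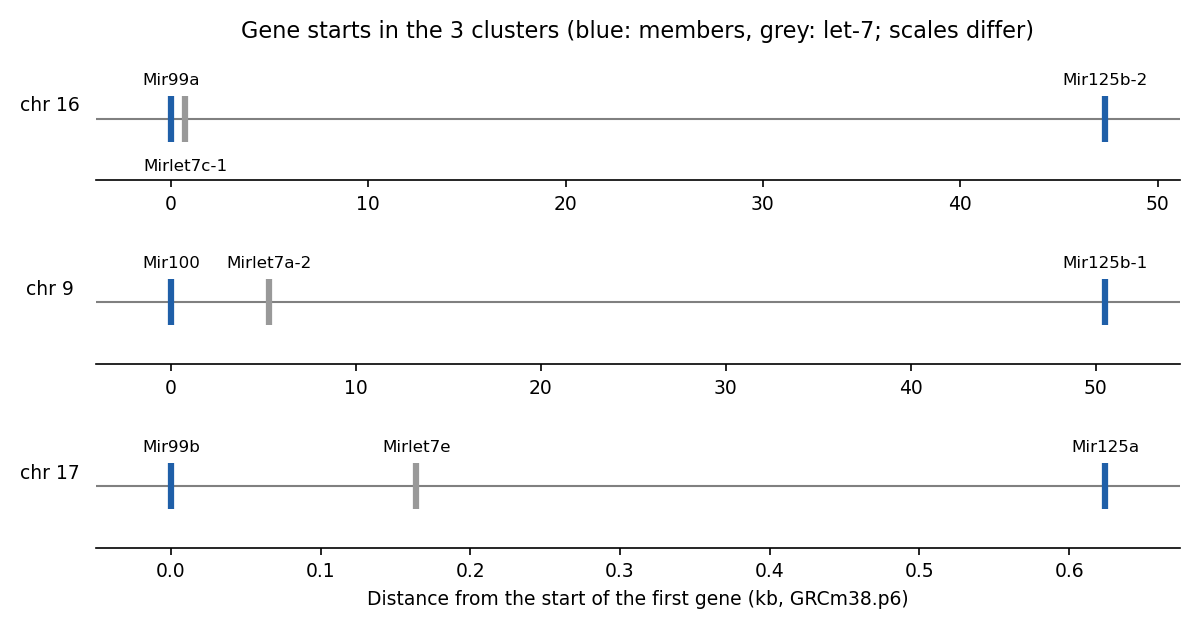
Starts of the member genes (blue) and let-7 genes (grey) in the 3 clusters, as distance in kb from the first gene, on a scale of its own for each chromosome. Mir99b and Mir125a lie 0.624 kb apart, whereas Mir125b-1 and Mir125b-2 lie 50.5 and 47.3 kb from the first gene of their clusters.

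The arrays carried 3072 spots, and between 148 and 233 mouse probes per array were detected in either channel. A probe counted as detected in a channel when 1 of its 2 spots was brighter than 95% of the blank and negative-control spots there, and 180 mouse probes seen on at least 3 of the 4 arrays of a stage were tested. The labels name the sample as channel 2 (Cy5) on every array, whereas the design text and the sample descriptions put 2 of the 4 replicates of a stage in each dye, and both cannot hold. The array files name no dye. For days 1, 2 and 4 it was taken as the channel farther from the proliferating arrays, so the direction of every value is likely, not given. This put the sample in red on 2 arrays and in green on 2 arrays of each day, as the design text states and against the channel label. By distance, the same channel was chosen on 12 of 12 of these arrays without the members and on 11 of 12 without the muscle-specific miRNAs. In the latter day 1 array 4 changed, which breaks the 2 arrays per dye of the design text. On that array the 2 channels differed least in distance (0.00644). Taking the channel richer in miR-206 and miR-133a/miR-133b as the sample, a direction assumed beforehand, gave the same on 12 of 12. A regression of the authors' deposited table on the arrays also gave 12 of 12. Pairs of these arrays turned alike correlated at 0.532 to 0.939 across probes, and pairs turned oppositely at -0.614 to -0.0943. Turning all 12 arrays round would change the sign of each log2 ratio of these days and swap the intensities of sample and pool. It could also change which probes pass the filter, which reads the sample's channel on these arrays. Of 5 probes of skeletal muscle miRNAs, 2 rose at day 1, 4 at day 2 and 4 at day 4 in limma. Of the 180 tested probes, 13.3%, 19.4% and 27.2% were called in either direction at these times. The muscle probes were among those that set the turning, so their direction is no separate support for it. Among probes of other cell types, miR-143, found in smooth muscle and fibroblasts, rose at all 3 times (1 of 5 tested), as did the blood miRNA miR-150 (1 of 1 tested), and the 1 tested neuronal marker, miR-124a, did not pass. The endothelial and liver markers were not tested. The part of other cell types in the values of the members was not tested. A bulk array cannot tell fewer cells that make a miRNA from less of it per cell.

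Of the 5 members, miR-125a and miR-125b were detected in 40 of 40 array channels, miR-99b in 38, miR-100 in 22 and miR-99a in 4. The background-subtracted intensity of miR-125b was 481 to 7945, that of miR-125a 517 to 3131 and that of miR-99b 196 to 874.5. It was 116.8 to 450.2 for miR-100 and 62.5 to 289 for miR-99a, over detection limits of 144.9 to 424.3 in red and 71.4 to 414.2 in green. Levels of different probes are not compared, since each probe binds its target with its own strength. miR-125a, miR-125b and miR-99b passed the filter, the sample's channel of each was detected on all 4 arrays of every stage, and miR-100 and miR-99a did not pass.

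**Figure D2:**
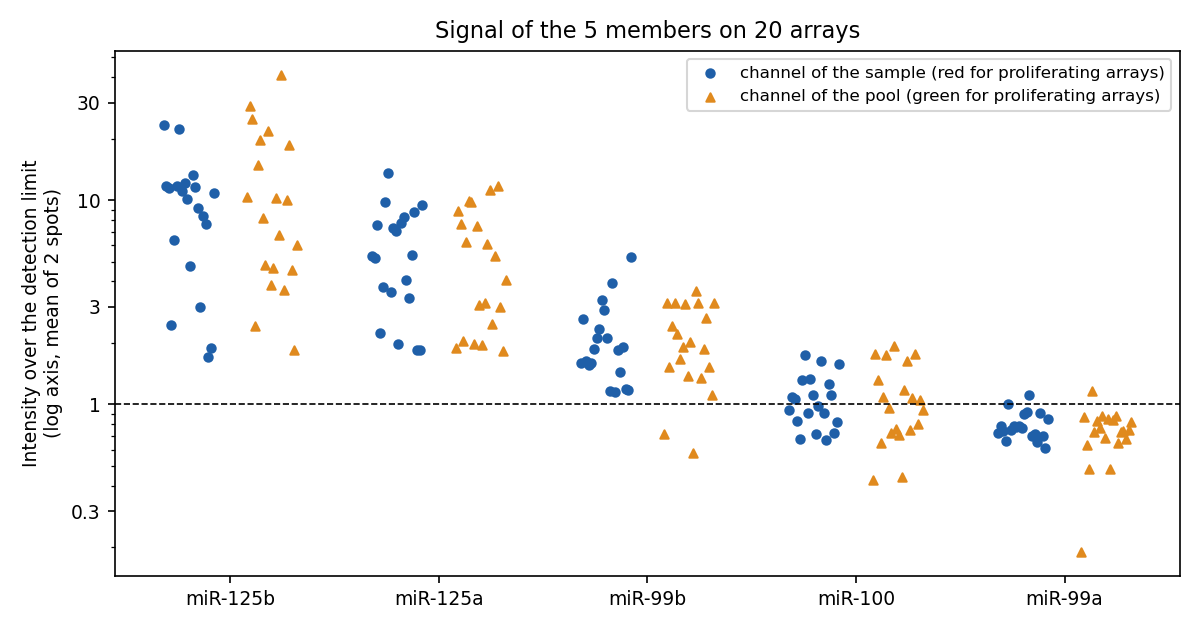
Background-subtracted intensity of each member divided by the detection limit of the same array and channel (log axis), with the channel of the sample left and that of the pool right, 20 arrays each. miR-125b and miR-125a lie above the dashed line at 1 on every array, miR-100 lies on both sides of it and miR-99a lies mostly below.

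At day 4 miR-125b fell and the other tested members did not pass the test. This was 1 of 3 tested members called, whereas 27.2% of the 180 tested probes were called in either direction and 12.8% fell. Values are log2 ratios of the sample over the proliferating pool, after the dye term of the fit was removed. For miR-125b (mmu-miR-125b) they were -0.56, -0.95, -0.63 and -0.69 on the 4 day 4 arrays. All 4 lay below 0. The mean was -0.71 ± 0.168 (SD, n = 4), which is 1.63-fold lower at day 4 than in the pool (SE 0.146, limma adjusted p = 0.000566). The median of the 180 probes was 0.02.

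The fall of miR-125b rests on the balance of the dyes. The probe was brighter in green on these arrays, with a dye term of -0.67 log2 red over green. Before that term was removed, the log2 ratio of red over green was -1.23 and -1.62 on the arrays with the day 4 sample in red, against -0.04 and 0.02 on those with it in green. After its removal the arrays with the sample in red stood at -0.56 and -0.95, and those with it in green at -0.63 and -0.69. The sample's background-subtracted intensity was 1840, 481, 577 and 1807 on the 4 arrays, beside 4265, 1392, 531.8 and 1577 for the pool. The sample was far dimmer than the pool where it was labelled in the red channel, and slightly brighter where it was in green.

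The 4 arrays of proliferating cells, whose 2 channels both held proliferating RNA, gave 0.34, -0.41, -0.47 and 0.44 for miR-125b as red over green after the dye term. Their spread (SD 0.481, n = 4) cannot be set against that of day 4, whose values are turned to sample over pool. Arrays 1 and 4 lay above 0 and arrays 2 and 3 below it. As the ratio to the pool leaves out the spread of proliferating cells, day 4 was also set against these arrays under each of the 6 balanced ways to turn them. The call of miR-125b held in 5 of the 6 ways, with values of -1.12 to -0.67, and was lost in 1 (-0.29, limma adjusted p = 0.267). Both -1.12 and -0.29 came from setting arrays 1 and 4 against arrays 2 and 3, turned in opposite directions. So turned, the 4 proliferating values share 1 sign. Which way is right is not given in the labels, so the count of ways does not measure certainty.

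miR-125a (mmu-miR-125a), its seed relative, had log2 ratios of -0.14, -0.60, -0.12 and 0.26 at day 4. Array 2 stood lowest for all 3 tested members, and of the 20 arrays it had the fewest mouse probes detected (148). Array 4 of miR-125a lay above 0. The mean was -0.15 ± 0.349 (SD, n = 4), with a 95% interval from -0.40 to 0.10 and a limma adjusted p of 0.443. miR-99b (mmu-miR-99b), which lies in the cluster of miR-125a, had -0.13, -0.25, 0.15 and -0.01. Its mean was -0.06 ± 0.170 (SD, n = 4, interval -0.31 to 0.20, limma adjusted p = 0.806). Neither interval reached the mean of miR-125b.

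**Figure D3:**
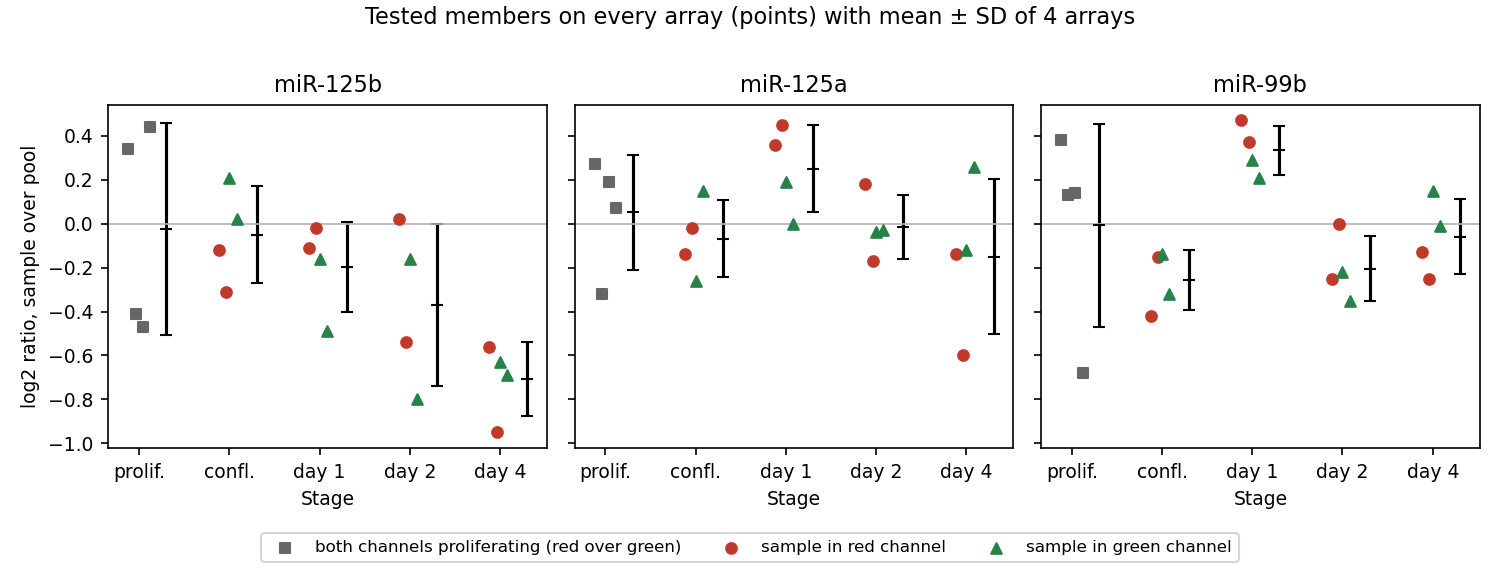
log2 ratio of the sample over the proliferating pool for the 3 tested members on every array, after the dye term, with the mean ± SD of 4 arrays at each stage. For proliferating arrays the points are red over green, and the 4 confluent points may be turned round as a set. All 4 day 4 points of miR-125b lie between -0.95 and -0.56, and all 4 day 1 points of miR-99b between 0.21 and 0.47.

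At day 2 no member was called in limma (0 of 3, against 19.4% of the 180 probes), and 1 member, miR-125b, had an unadjusted p under 0.05. Its log2 ratios were -0.16, 0.02, -0.54 and -0.80. They ranged from no difference to a value within the day 4 range. The mean was -0.37 ± 0.370 (SD, n = 4, limma adjusted p = 0.0849). Without array 2 it was -0.51 (limma adjusted p = 0.0308), and without array 4 it was -0.21 (limma adjusted p = 0.473). miR-99b had -0.22, -0.25, 0.00 and -0.35, with a mean of -0.20 ± 0.148 (SD, n = 4, limma adjusted p = 0.275). miR-125a had -0.04, 0.18, -0.17 and -0.03, on both sides of 0, with a mean of -0.01 ± 0.144 (SD, n = 4, limma adjusted p = 0.952).

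At day 1 no member was called in limma either (0 of 3, against 13.3% of the 180 probes), and 2 had an unadjusted p under 0.05. miR-99b had log2 ratios of 0.47, 0.29, 0.21 and 0.37, all above 0. The mean was 0.33 ± 0.110 (SD, n = 4, interval 0.08 to 0.59, limma adjusted p = 0.0707). It passed without proliferating array 4 (limma adjusted p = 0.0267) and without all 4 proliferating arrays (0.0262), with the same value. It was 0.07 without normalisation (limma adjusted p = 0.759), 0.16 with the arrays turned without the muscle-specific miRNAs (0.551), and 0.07 to 0.60 against the proliferating arrays under the 6 ways. On proliferating array 4 miR-99b stood at -0.68 red over green, against 0.13 to 0.38 on the other 3 arrays. Its 2 spots on array 4 stood 1.42 log2 apart, the widest gap of this probe (median 0.164). miR-125a had 0.36, 0.19, 0.00 and 0.45 at day 1, with a mean of 0.25 ± 0.201 (SD, n = 4, limma adjusted p = 0.195). That mean was 0.03 with the arrays turned without the muscle-specific miRNAs (limma adjusted p = 0.899). miR-125b had -0.11, -0.16, -0.49 and -0.02, with a mean of -0.19 ± 0.204 (SD, n = 4, limma adjusted p = 0.43). The 4 miR-125b values thus stood below 0 while none of the miR-99b values did. With the arrays turned without the muscle-specific miRNAs this did not hold on array 4, at 0.00 for miR-125b and -0.36 for miR-99b.

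The confluent arrays could not be turned by distance, so they are given as sizes. With arrays 1 and 2 opposed to arrays 3 and 4, the pairing of the widest spread and also that of the authors' deposited table, no member was called in limma (0 of 3, against 0.556% of the 180 probes). Of the members 1, miR-99b, had an unadjusted p under 0.05. The sizes were 0.26 log2 for miR-99b, 0.07 for miR-125a and 0.05 for miR-125b, with limma adjusted p of 0.491, 0.847 and 0.907.

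In the order of the stages the mean log2 ratio of miR-125b to the pool was -0.19, -0.37 and -0.71 at days 1, 2 and 4, and the differences between neighbouring days did not pass the test (limma adjusted p = 0.9 for day 2 against day 1 and 0.808 for day 4 against day 2). Day 4 minus day 1 was -0.51 for miR-125b, -0.40 for miR-125a and -0.39 for miR-99b. None was called in limma (0 of 3, against 8.89% of the 180 probes, with adjusted p of 0.135, 0.17 and 0.176), while all 3 had an unadjusted p under 0.05. Without normalisation the values were -0.37, -0.23 and -0.14, and with the arrays turned without the muscle-specific miRNAs miR-125a was at -0.18 and miR-99b at -0.22. Without day 4 array 2 miR-125a was at -0.24. Day 2 minus day 1 was -0.54 for miR-99b, and none of the 3 was called (against 0.556% of the 180 probes, limma adjusted p = 0.227 for miR-99b, 1 with an unadjusted p under 0.05). The 4 day 2 values of miR-99b, -0.35 to 0.00, did not overlap its 4 day 1 values, 0.21 to 0.47. The 2 days did not overlap for 6.11% of the 180 probes. With the arrays turned without the muscle-specific miRNAs, day 1 array 4 of miR-99b stood at -0.36, and its 2 days overlapped. The difference of miR-99b was -0.20 without normalisation (limma adjusted p = 0.658). Day 4 minus day 2 was -0.34 for miR-125b, -0.14 for miR-125a and 0.15 for miR-99b, with none called among the members or the 180 probes in limma (0% of the probes, 0 members and 14 probes at an unadjusted p under 0.05). These contrasts share the day 1, day 2 and day 4 arrays, and all values share the pool.

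The members were next set against each other on the same 12 arrays of days 1, 2 and 4. miR-125b was lower than miR-125a on 12 of 12 arrays, with a mean difference of -0.45 ± 0.230 log2 (SD, n = 12, range -0.95 to -0.11). The exact sign-flip test over arrays gave the smallest p it can give, 0.000488 (two-sided, 0.00147 adjusted over 3 pairs). The dye term, -0.67 for miR-125b and -0.17 for miR-125a, was estimated with these same arrays and removed first. The 12 values are therefore not fully independent, and the p is approximate. Before its removal miR-125b was the higher in the sample on day 1 arrays 2 and 3 and day 2 array 1. On these the sample was in green. The count of 12 of 12 thus holds only after the dye term. Turned without the muscle-specific miRNAs, day 1 array 4 stood at 0.00 for miR-125b and -0.45 for miR-125a. The count was then 11 of 12 arrays and the difference -0.38 ± 0.354 (SD, n = 12, exact p = 0.00488, adjusted 0.0146). miR-125b was lower than miR-99b on 10 of 12 arrays, with a mean difference of -0.45 ± 0.317 (SD, n = 12, exact p = 0.00195, adjusted 0.00293). Turned in that way, miR-125b was lower than miR-99b on 9 of 12 arrays, by a mean difference of -0.39 (n = 12, exact p = 0.00977, adjusted 0.0146). miR-99b and miR-125a differed by -0.01 ± 0.250 (SD, n = 12, exact p = 0.942), and miR-99b was the lower on 5 of 12 arrays. Within 1 day the 4 arrays cannot give an exact p under 0.125, and miR-125b minus miR-125a reached this with -0.45 at day 1, -0.35 at day 2 and -0.56 at day 4. These differences hold for the mouse miR-125a probe. A probe named for zebrafish miR-125a had means of -0.23, -0.06 and -0.22 at days 1, 2 and 4. The means of miR-125b were -0.19, -0.37 and -0.71, so it was not the lower at day 1. No test was run against that probe. All 12 arrays share 1 pool, so an error of the pool would shift every array the same way, and the families were chosen with the fall of miR-125b known.

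**Figure D4:**
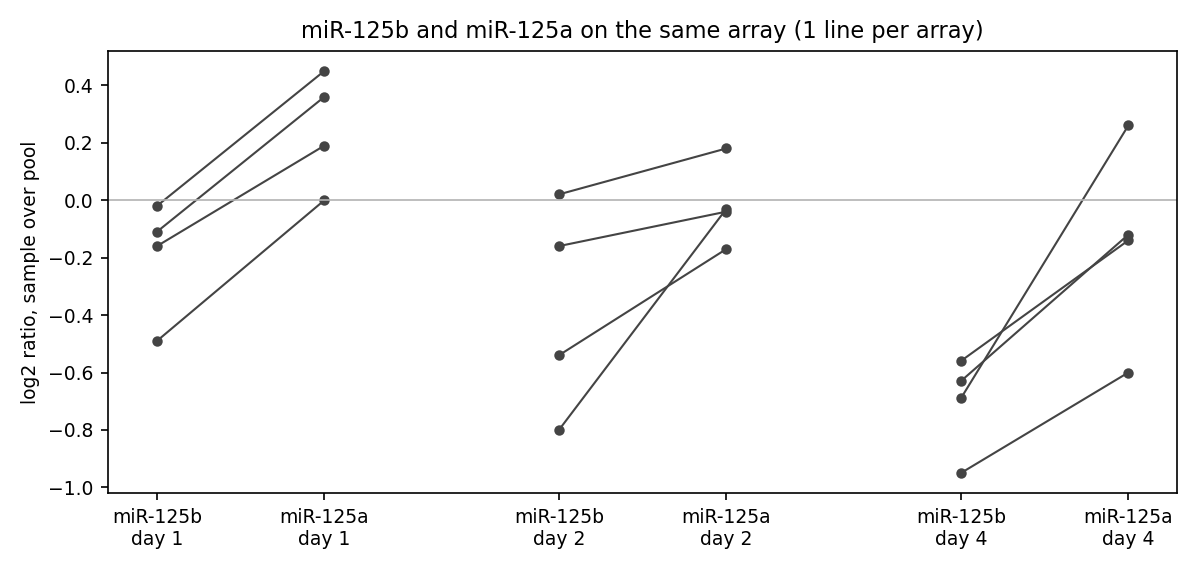
log2 ratio of the sample over the pool for the mouse probes of miR-125b (left) and miR-125a (right) on the same array, joined by 1 line per array, at days 1, 2 and 4. Values are after the dye term. All 12 lines run upward, from miR-125b to the higher miR-125a, and 11 of 12 would if day 1 array 4 were turned round.

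Across these 12 arrays, miR-125a and miR-125b had a Pearson r of 0.722, miR-99b and miR-125a 0.594, and miR-99b and miR-125b 0.448, beside a median of 0.0437 over all pairs of tested probes. These are descriptions over arrays that share the pool, the dye term and the days. The tested probe most like miR-125b was miR-31 (r = 0.836), with a mean of -1.11 log2 at day 4 (limma adjusted p = 5.96e-06). miR-135b (r = 0.768) and miR-182 (r = 0.766) came next, at -0.15 and -0.77 at day 4 (limma adjusted p = 0.659 and 7.15e-06). Most like miR-125a were miR-30c (0.822), miR-341 (0.795) and let-7i (0.772). Most like miR-99b were miR-221 (0.722), miR-222 (0.720) and miR-296 (0.710). miR-221 and miR-222 both fell at day 4, with -0.71 and -1.22 (limma adjusted p = 0.00016 and 4.11e-07). miR-296 had a mean of 0.63 at day 1 (limma adjusted p = 0.00191) and 0.08 at day 4 (0.75).

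miR-100 (mmu-miR-100), which differs from miR-99a in 1 base, was not tested. Its sample channel was detected on 2 of 4 arrays at each stage, and both channels on 7 of 16 arrays outside the proliferating stage. The sample's intensity at day 4 was 268.8, 203.8, 249 and 262.8, against 401.8, 245.8, 300.5 and 246 for the pool. Day 4 arrays 1 and 4 passed the limit in the sample's channel, and the 2 spots of array 3 stood 1.90 log2 apart. The mean log2 ratio was 0.23 ± 0.304 at day 1, 0.08 ± 0.228 at day 2 and 0.01 ± 0.321 at day 4 (SD, n = 4 each), values near background to which no test was applied.

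miR-99a (mmu-miR-99a) was detected in its sample's channel on 0 of 4 arrays of proliferating cells, 1 at confluence, 1 at day 1, 1 at day 2 and 0 at day 4. The sample's intensity at day 4 was 219.8, 197.5, 185.5 and 141, with a median of 191.5, against a median of 210.9 for the pool, whose lowest value was 168.5. Both sides were not well above background, so no fold is given.

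Probes of other species with the same names were read too. A probe named for zebrafish miR-125a was detected in 40 of 40 channels, with a log2 ratio of -0.23 at day 1, -0.06 at day 2 and -0.22 at day 4. It was not called at any of these times over the 363 detected probes without a mouse name (limma adjusted p 0.189, 0.857 and 0.269), and day 1 had an unadjusted p of 0.0469. At day 1 it went the other way from the mouse miR-125a probe, which had a mean of 0.25. Of these 363 probes, 9.92% were called at day 1, 5.79% at day 2 and 12.9% at day 4. The fruit fly miR-100 probes were detected in 0 (dme-miR-100) and 6 (dps-miR-100) of 40 channels.

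The let-7 miRNAs of the clusters, repressors of growth genes that accumulate in differentiated cells, were read beside the members. let-7e lies between miR-99b and miR-125a, and let-7c beside miR-99a. Whether the let-7c probe reads the RNA of that gene alone was not tested. At day 4 let-7c was at -0.11 log2 (limma adjusted p = 0.551) and let-7e at -0.05 (0.763), and neither was called at days 1, 2 or 4. Of the let-7 family with miR-98, 7 of 8 probes were tested. At day 4, 0 of 7 were called in limma, against 27.2% of the 180 probes. Their median was -0.05, with 0 at an unadjusted p under 0.05. let-7a, the partner of miR-100 and miR-125b on chromosome 9, was read by 2 probes without a mouse name. Both rose at day 4, with 0.31 for the human let-7a probe (limma adjusted p = 0.027) and 0.46 for a probe named let-7a-e (0.00451). Of the 363 probes without a mouse name, 12.9% were called at day 4 in either direction. let-7a is also made from a gene outside these clusters, and near-identical let-7 sequences were not separated here. miR-10a and miR-10b, relatives of the miR-99 family outside the clusters, were below the filter (0 of 2 tested).

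The authors' deposited table, whose scale follows log2 and whose columns have medians near 0, held for miR-125b 0.02 at confluence, -0.21 at day 1, -0.33 at day 2 and -0.60 at day 4. In the same order the authors' deposited table held -0.01, 0.23, 0.04 and -0.08 for miR-125a, and -0.43, 0.07, -0.41 and -0.22 for miR-99b. The authors' deposited table thus gave miR-99b lower than the means here at days 1, 2 and 4. For miR-100 the authors' deposited table held -0.14 and for miR-99a 0.09 at day 4. How that table was made is not given in the sources used here.

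**Figure D5:**
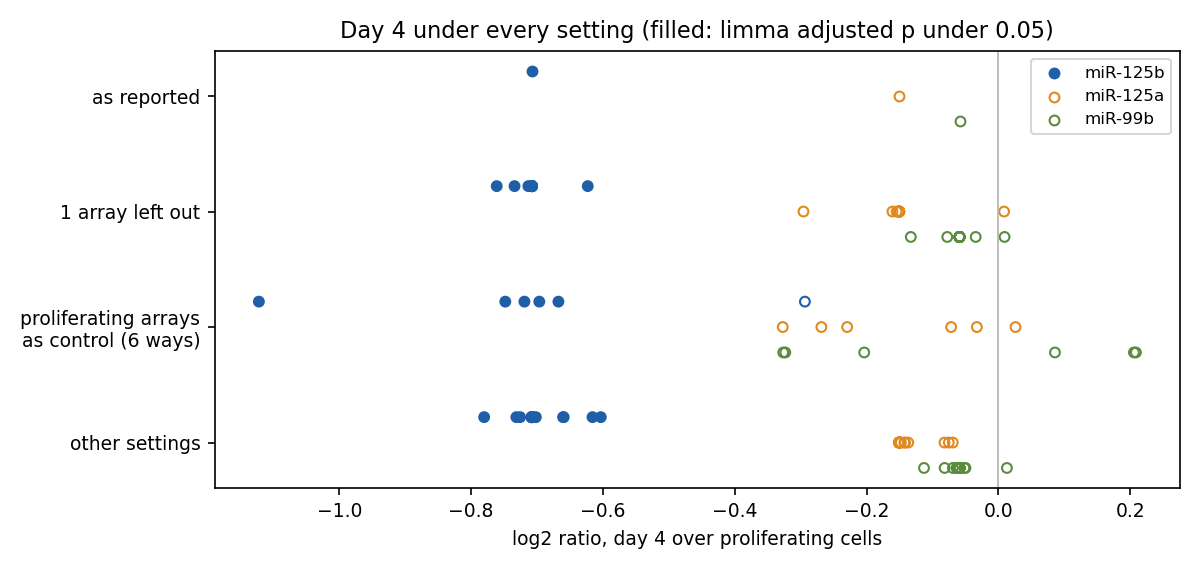
log2 ratio of day 4 cells over proliferating cells for the tested members under every setting (filled: limma adjusted p under 0.05). miR-125b stays below 0 in all of them, from -1.12 to -0.29, with 1 open point, while miR-125a and miR-99b have points on both sides of 0.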

How the data were processed

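Each deposited array file listed red and green intensity for every spot (median and mean foreground and a background, per the file headers), before any normalisation by the authors. The log2 values of the authors' deposited table have no stated processing. Their direction was read from a regression on the arrays (R-squared 0.613 to 0.956 outside the proliferating column, 0.0170 there, which was not used), and their exact scale and centring stay unknown.

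Medians were corrected with normexp (offset 50), normalised by global loess and averaged over 2 spots with limma 3.58.1 in R 4.3.3. One fit over 20 arrays held a dye term and 1 effect for each stage other than proliferating (lmFit and eBayes, two-sided, 15 residual degrees of freedom). The proliferating arrays carried the dye term only, so their scatter entered the SE and p of every comparison. The p were adjusted by Benjamini-Hochberg over 180 probes at 0.05. The number of arrays limits the precision. Named miRNAs were all members, other probes of these names, the 3 tested probes most like each tested member, and the lists let-7 and miR-10. Members and lists were chosen with earlier results of these data known. Whether the pool holds the cultures of the proliferating arrays is not stated. The fit and the turning of arrays were tested on simulated data. The simulated turning had stronger effects and less noise than most probes here, so it cannot show that each array was turned rightly. Background, normalisation, filter, turning, control and left-out arrays were varied. No slide or scan batch was given.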

Additional observations from a re-analysis of the deposited data

How the results depend on the processing

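miR-125b at day 4 stayed called in 43 of 44 alternatives. Leaving out 1 array in turn gave -0.76 to -0.62, and the other settings -0.78 to -0.60. The exception was 1 of the 6 ways of using the proliferating arrays as control, with 0 members called in place of 1. It set proliferating arrays 1 and 4 against arrays 2 and 3, and the opposite turn of the same arrays gave -1.12. The count of members called at day 2 became 1, miR-125b, under print-tip loess, under 1 of those 6 ways, with repeat spots kept apart and without day 1 arrays 2 and 4 and day 2 array 2 together. Leaving out 1 array gave 0 to 1. At day 1 it became 1 under 3 of the 6 ways (miR-125b in 1, miR-99b in 2) and, in a setting chosen after seeing the data, without the 4 proliferating arrays, and 0 to 1 on leaving out 1 array. Day 4 against day 1 gave 1, miR-125b, with repeat spots apart. The cause was not tested. Of values that were not called as reported, miR-125a at day 1 ranged from 0.03 to 0.43, miR-99b at day 1 from 0.07 to 0.60 and miR-125b at day 2 from -0.78 to 0.05 over 44 alternatives each.

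Signs turned for values that were not called as reported. miR-125a at day 2 became 0.0382 without normalisation, 0.00673 from mean foregrounds, and 0.0657, 0.163 and 0.105 under 3 of the 6 ways, and leaving out 1 array, or the 3 named above, gave -0.0883 to 0.0419. At day 4 miR-125a became 0.0260 under 1 way and -0.296 to 0.00871 on leaving out 1 array, and against day 2 -0.283 to 0.0219. miR-99b at day 4 became 0.0130 from mean foregrounds and 0.0859, 0.206 and 0.209 under 3 ways, and was -0.133 to 0.00940 on leaving out 1 array. At day 2 miR-99b became 0.0596 and 0.0626 under 2 ways. miR-125b became 0.0470 at day 2 and 0.220 at day 1 under the 1 way that lost its day 4 call. No paired analysis was possible because the labels give no replicate numbers shared between stages. Signal over background limits miR-100 and miR-99a.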
